A study of Mus musculus with 4 samples.

Results

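Transcription factors of the neural crest and of the epithelial to mesenchymal transition (EMT), together with the crest cell receptor gene Ngfr, were examined in 3 mouse neural progenitor cell (NPC) lines and in a pool of tissue RNA. The 10 genes were the AP-2 factors Tfap2a, Tfap2b and Tfap2c, the Snail factors Snai1 and Snai2, the Twist factors Twist1 and Twist2, the forkhead factor Foxd3, the ETS factor Ets1, and Ngfr. They were found by the gene name that the array files give to a probe, with older names such as Tcfap2a counted, and made up 10 of 27661 genes or transcripts and 17 of 41174 non-control probes. Each of 4 samples was hybridised to 1 array of a single-colour Agilent whole-genome design, after labelling of 0.25 ug of total RNA with the dye Cy3. The reference sample, Mixture, held equal masses of RNA from lung, liver, spleen, thymus, kidney, heart and day 11 embryo, with the strain label Swiss Webster. The NPC lines came from different embryonic stem (ES) cell lines: NS21 and NSEB5-2C carry the strain label 129/Ola, and NS195R carries 129/Sv. No treatment or transgene is given in the labels of the NPC arrays, but 1 label of the Mixture array names an NPC line treated with doxycycline, against its title and cell type label. The study asked which transcription factors stand at least 1.5-fold above Mixture in NPC lines. Each line has 1 array, so the lines served as the 3 replicates of the NPC group, strain cannot be told apart from line, nor from cell type in a ratio to Mixture, and p-values measure only the spread between these samples.

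The neural crest is a cell population of the vertebrate embryo that forms at the border of the neural plate, leaves the neural tube and gives rise to peripheral neurons and glia, pigment cells and much of the facial skeleton. AP-2 factors act early in its specification, Foxd3 and Ets1 help to specify it, and Snail and Twist factors drive the loss of epithelial adhesion through which crest cells leave the neuroepithelium. Snail factors are zinc finger repressors that bind E-boxes, Cdh1 (E-cadherin) among their known targets. Twist factors are basic helix-loop-helix proteins that pair with E proteins. Ngfr, the p75 receptor of neurotrophins, is widely used to isolate crest cells.

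Promoter sequence was taken from RefSeq (build GRCm38.p6) as the 250 bases before the annotated start, and the table held 7 of the 10 members, with none for Tfap2c, Snai2 and Ets1. The motifs searched were the Snail E-box CAGGTG on both strands, the AP-2 motif GCCNNNGGC, which reads the same on both strands, and the ETS motif CCGGAAGT on both strands. Of 8 windows of the 7 members, 1 held CAGGTG, 2 held GCCNNNGGC and 0 held CCGGAAGT, while 17.2%, 13.7% and 2.88% of 32851 windows of the same length in the whole table did. The windows of Snai1, Twist1 and Twist2 are shown because these were the members that passed the study's 1.5-fold rule in the data that follow. Capitals mark the matches: in Snai1 an E-box, read as CACCTG, 126 bases before the start and an AP-2 motif 87 bases before it, in Twist2 an AP-2 motif 80 bases before the start, and in Twist1 no match. A match describes letters only.
Snai1, chr2:167537945-167538194, plus strand: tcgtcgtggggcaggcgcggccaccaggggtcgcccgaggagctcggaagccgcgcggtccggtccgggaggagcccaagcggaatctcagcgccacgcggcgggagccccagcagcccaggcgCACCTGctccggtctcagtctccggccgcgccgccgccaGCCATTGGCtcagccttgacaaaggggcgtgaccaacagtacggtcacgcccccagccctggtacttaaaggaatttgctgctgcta
Twist1, chr12:33957421-33957670, plus strand: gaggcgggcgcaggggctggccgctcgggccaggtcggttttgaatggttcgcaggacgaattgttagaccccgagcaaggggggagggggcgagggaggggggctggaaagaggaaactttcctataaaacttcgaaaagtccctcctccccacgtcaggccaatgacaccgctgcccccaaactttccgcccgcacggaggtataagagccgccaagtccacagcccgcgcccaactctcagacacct
Twist2, chr1:91801211-91801460, plus strand: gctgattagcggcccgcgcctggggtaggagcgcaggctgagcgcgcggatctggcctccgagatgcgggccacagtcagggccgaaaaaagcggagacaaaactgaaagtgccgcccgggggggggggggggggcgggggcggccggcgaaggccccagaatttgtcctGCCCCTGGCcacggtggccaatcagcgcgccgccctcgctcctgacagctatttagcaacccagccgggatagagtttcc

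Of 43379 non-control spots, between 23983 and 26840 were well above background on each array and 0 were saturated. The 75th percentile of the deposited processed signal lay between 232 and 259, and levels are given as log2 signal relative to it. Of 8 markers of the pooled tissues 7 were well above background in Mixture and at most 2 in any line, which matches the title of the Mixture array and not its source label. Of 12 neural progenitor markers, all 12 were well above background in NS195R, 10 in NSEB5-2C and 9 in NS21. A probe that did not stand well above background on an array is called dim there. Sox2 was not well above background in NS21, and the radial glia gene Fabp7 and the Notch target Hes5 were so in NS195R and in neither other line. Because the samples are bulk RNA, fewer cells of a type and less RNA per cell cannot be told apart in any value given here.

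All 10 members were well above background in Mixture, 9 in NSEB5-2C, 8 in NS195R and 9 in NS21, and 8 were so on all 4 arrays. The lines did not share 1 pattern. NSEB5-2C held the highest Tfap2a, Snai1, Snai2, Twist1 and Twist2 of the 4 arrays, NS21 the highest Tfap2c, and Mixture the highest Tfap2b, Foxd3, Ets1 and Ngfr, on each gene's brightest probe. For Tfap2b and Foxd3 that order was lost with quantile and median scaling (for Tfap2b with normexp too, at 0.02), where NSEB5-2C (log2 ratio 0.83 and 0.67) and NS21 (0.44 and 0.28) lay above Mixture.

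**Figure D1:**
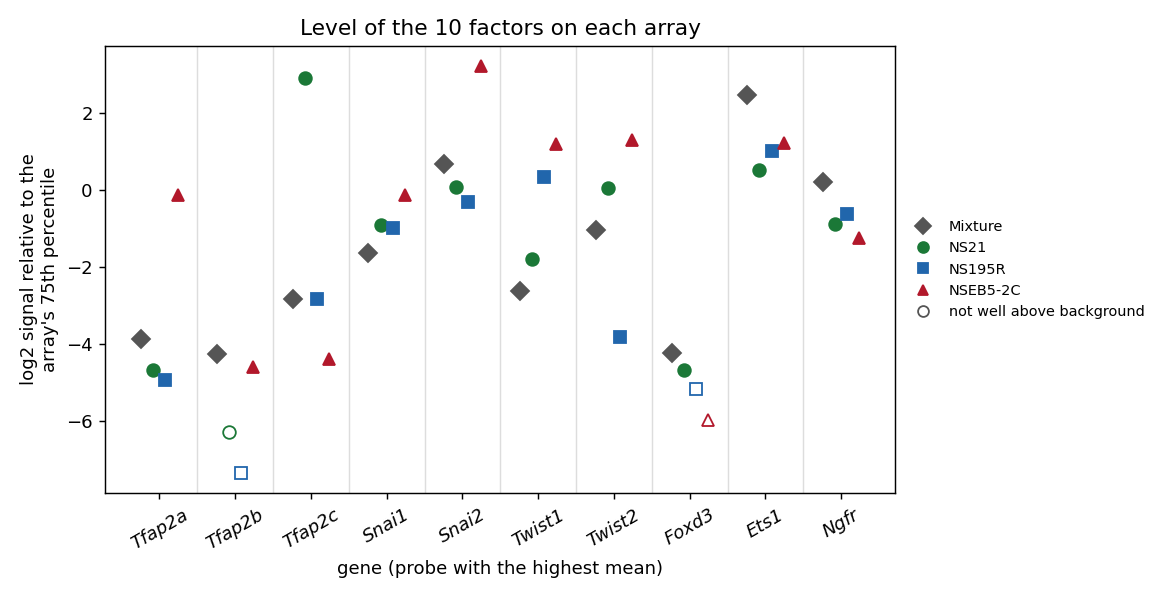
Level of each of the 10 genes on each of the 4 arrays, as log2 signal relative to the array's 75th percentile (y axis) on the gene's brightest probe, with 1 point per array and open points where the probe was dim. NSEB5-2C stood at -0.13 for Tfap2a and 3.21 for Snai2, and NS21 at 2.90 for Tfap2c, each far from the other arrays, while the 3 lines lay close together for Ets1 and Ngfr.

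Among AP-2 factors, which are expressed in crest, surface ectoderm and extraembryonic tissue of the embryo, Tfap2c had the widest range of any member. Its processed signal was 36.2 in Mixture, 11.04 in NSEB5-2C, 35.3 in NS195R and 1786 in NS21. NS21 was thus far above the rest, Mixture and NS195R had nearly the same signal, and NSEB5-2C was lowest. The log2 ratio to Mixture was -1.56 in NSEB5-2C, -0.001 in NS195R and 5.74 in NS21, and NS21 lay 53.5-fold above NS195R, the next line. With limma, NS21 stood 6.52 log2 above the mean of the other lines (SE 1.002, limma adjusted p = 0.720), which did not pass.

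Tfap2a was highest in another line. Its signal was 17.7 in Mixture, 212 in NSEB5-2C, 8.20 in NS195R and 9.40 in NS21 on the brighter of 2 probes. NSEB5-2C was the high array and the other 3 lay near the lower end of the measurable range, where the lowest signal well above background was between 6.36 and 8.10. The log2 ratio to Mixture was 3.74 in NSEB5-2C, -0.80 in NS21 (0.07 with quantile normalization) and -1.07 in NS195R. NSEB5-2C stood 4.68 above the mean of the other lines (SE 0.45, limma adjusted p = 0.768), also without passing. The second probe was well above background in NSEB5-2C alone, at a level of -3.59 against between -6.99 and -5.83 on the other arrays.

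Tfap2b was near the limit of measurement throughout. On its brightest probe the signal was 13.4 in Mixture, 9.60 in NSEB5-2C, 3.07 in NS21 and 1.55 in NS195R, and only the first 2 of these were well above background. The other 2 probes were not well above background on any array. Raised to the lowest measurable signal of each array, the lines differed by 1.51-fold at least, so no order of NS21 and NS195R can be given.

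**Figure D2:**
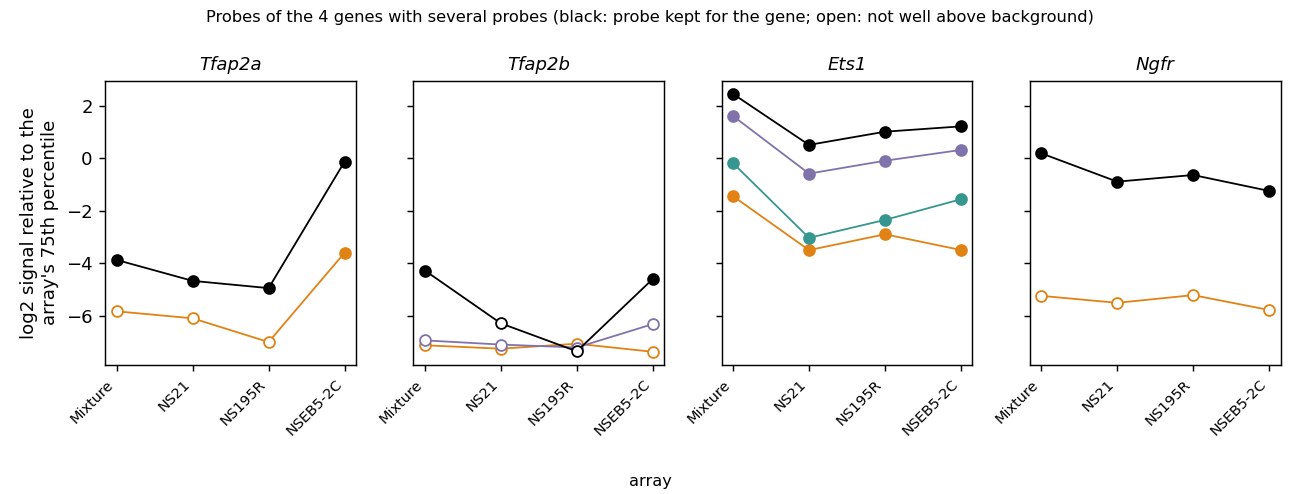
Level of every probe of the 4 genes with several probes on each array (log2 signal relative to the array's 75th percentile, y axis), with the probe kept for the gene in black, other probes in colour and open points where it was dim. Both Tfap2a probes were highest in NSEB5-2C and all 4 Ets1 probes were highest in Mixture.

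The Snail factors are close relatives with the same type of DNA target, and they differed in how far the lines stood apart. The signal of Snai2 was 410 in Mixture, 2143 in NSEB5-2C, 202 in NS195R and 253 in NS21. NSEB5-2C was 8.71-fold above NS21, the next line, and 5.83-fold above Mixture, whereas NS21 and NS195R differed by 1.32-fold. NS21 lay below Mixture (log2 ratio -0.58) except with median scaling (0.15). With limma, NSEB5-2C stood 3.32 above the mean of the other lines (SE 0.48, limma adjusted p = 0.771). Snai1 varied much less. Its signal was 83.2 in Mixture, 211 in NSEB5-2C, 127 in NS195R and 127 in NS21, so that every line lay above Mixture and NS21 and NS195R were level. The log2 ratios were 1.50 for NSEB5-2C, 0.65 for NS195R and 0.73 for NS21, with a mean of 0.96 (SE 0.54, limma adjusted p = 0.321). The median ratio of genes measured on every array was 0.69, 0.69 and 0.78 in the same order, so only NSEB5-2C lay above it. With normexp Snai1 was at 0.43 in NS195R and 0.46 in NS21, less than 1.5-fold.

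Twist1, needed for the mesenchyme of the head and limbs, had the largest mean ratio of the 10 genes over the 3 lines, though not without NSEB5-2C (1.90, against 2.87 for Tfap2c). Its signal was 41.6 in Mixture, 533 in NSEB5-2C, 315 in NS195R and 68.4 in NS21. All 3 lines lay above Mixture, NS21 least and NSEB5-2C most, with log2 ratios of 0.83, 2.96 and 3.84 in the order NS21, NS195R, NSEB5-2C. The mean was 2.54 (SE 1.42, limma adjusted p = 0.319), with every line above Mixture, and did not pass the test. Twist2, a marker of dermal mesenchyme, ranked the lines differently. Its signal was 126 in Mixture, 574 in NSEB5-2C, 17.9 in NS195R and 248 in NS21. NS195R was the low array and lay 14.6-fold below NS21, the next line, although it held the second highest Twist1. The log2 difference of NS195R from the mean of the other lines was -4.50 (SE 0.80, limma adjusted p = 0.327).

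Foxd3, a pluripotency and crest factor, was barely measurable. Its signal was 13.7 in Mixture and 9.31 in NS21, both well above background, and 6.98 in NS195R and 3.71 in NSEB5-2C, which were not. The mean log2 ratio was -1.04 (SE 0.67, limma adjusted p = 0.379).

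Ets1, a factor of lymphocytes, endothelium and crest, lay below Mixture in all 3 lines. Its signal was 1414 in Mixture, 539 in NSEB5-2C, 509 in NS195R and 340 in NS21 on the brightest of 4 probes. Mixture was the high array and the lines were within 1.63-fold of one another. The mean log2 ratio was -1.54 (SE 0.47, lower in 3 of 3 lines, limma adjusted p = 0.143), and Ets1 was the 1 member with an unadjusted p under 0.05, at 0.0394. Each of the 4 probes was highest in Mixture, with mean log2 ratios of -1.85, -1.54, -1.73 and -2.13. NS195R and NSEB5-2C differed by 1.15-fold and their order turned on the dimmest of the 4 probes.

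Ngfr was measured by a probe printed 10 times on the array (9 spots used in Mixture), which gives its spot error. The mean signal was 295 in Mixture, 98.1 in NSEB5-2C, 162 in NS195R and 129 in NS21, and the SD of the spots within an array lay between 0.043 and 0.11 log2 units. Mixture was the high array, and the spots of NS21, between 121 and 138, did not overlap those of NS195R, between 152 and 173, or of NSEB5-2C, between 89.1 and 111. These are spots of single samples and carry no spread between cultures. The mean log2 ratio was -1.11 (SE 0.43, lower in 3 of 3 lines, limma adjusted p = 0.198). A second Ngfr probe was dim on every array.

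**Figure D3:**
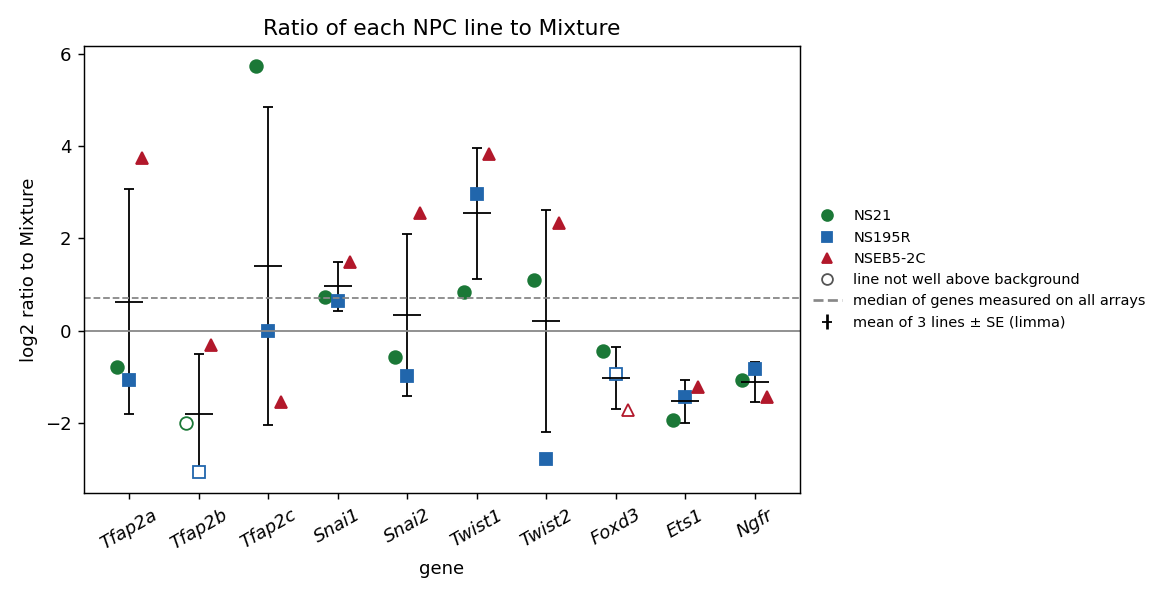
Log2 ratio of each NPC line to Mixture (y axis) for the 10 genes, 1 point per line, with the mean of the 3 lines and its limma SE as a bar and the median of genes measured on all arrays (0.71) as a dashed line. Twist1 and Snai1 had all 3 lines above 0. Ets1, Ngfr, Tfap2b and Foxd3 had all 3 below, with dim lines for Tfap2b and Foxd3. The bars of Tfap2a, Tfap2c, Snai2 and Twist2 span 0.

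Compared with Mixture as a group, 0 of the 10 members passed limma in either direction, where 187 of 19824 genes tested (0.943%) were called higher and 1765 (8.90%) lower. Without adjustment (p under 0.05), 0 members were higher, against 15.6% of genes, and 1 was lower, against 15.4%. The mean log2 ratio was 1.39 for Tfap2c (SE 3.45, limma adjusted p = 0.809), 0.62 for Tfap2a (SE 2.44, limma adjusted p = 0.882) and -1.80 for Tfap2b (SE 1.29, limma adjusted p = 0.421). For Snai2 it was 0.33 (SE 1.76, limma adjusted p = 0.914) and for Twist2 0.22 (SE 2.41, limma adjusted p = 0.961). The means of Tfap2c and Twist2 turned to -0.78 and -0.22 without NS21, and those of Tfap2a, Snai2 and Twist2 to -0.93, -0.78 and -0.85 without NSEB5-2C. The members' median log2 ratio was 0.27, beside 0.44 over all genes tested. Over the 12733 genes measured on every array the median ratio was 0.71, so the ratios carry a general shift. It was 0.74 with quantile normalization, 0.53 with normexp and 1.46 with scaling to the median. Relative to the 0.71, Twist1 lay at 1.83, Snai1 at 0.25, Ngfr at -1.82 and Ets1 at -2.25. Calls over all genes ended (0 higher and 0 lower) without any 1 of NS21, NS195R and NSEB5-2C, so the test gives little basis for reading 0 member calls as no difference.

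Line by line, the share of members at least 1.5-fold above Mixture was near or below that of all genes. In NS21 it was 4 of 10 (Snai1, Tfap2c, Twist1 and Twist2), against 45.7% of genes, in NS195R 2 of 10 (Snai1 and Twist1), against 46.0%, and in NSEB5-2C 5 of 10 (Snai1, Snai2, Tfap2a, Twist1 and Twist2), against 42.6%. The study's rule, which asks for NSEB5-2C and 1 of the other lines, selected 3 of 10 members, against 36.1% of genes. Snai1 dropped out of these with normexp and with a limit of 2-fold. At least 1.5-fold below Mixture were 4 of 10 in NS21, 7 of 10 in NS195R and 4 of 10 in NSEB5-2C, against 32.2%, 31.3% and 34.7%. In NS195R these were Ets1, Foxd3, Ngfr, Snai2, Tfap2a, Tfap2b and Twist2. The 7 became 5 with quantile normalization (29.9% of genes), 4 with normexp (22.4%) and 3 with median scaling (26.2%), and Ets1 and Twist2 were in each of these counts.

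Between the highest and the lowest line, with dim values raised to each array's lowest measurable signal, 5 of the 10 members had a range above the median of all genes tested (0.85 log2 units) and 5 did not. The ranges were 7.30 for Tfap2c, 5.13 for Twist2, 4.81 for Tfap2a, 3.52 for Snai2, 3.002 for Twist1 and at most 0.85 for the other members. At least 2-fold above both other lines were 4 of 10 members in NSEB5-2C (Snai2, Tfap2a, Tfap2b and Twist2), against 6.92% of genes, or 3 of 10 with dim values raised, which leaves out Tfap2b, against 5.60%. The count was 3 with normexp and 6 with median scaling, where Snai1 and Twist1 joined. The shares of genes under these 2 settings are not given, so these counts cannot be set against them. In NS21 it was Tfap2c, 1 of 10 against 8.88% (7.30% with dim values raised), and in NS195R 0 of 10 against 12.6% (10.3%). As far below both were Twist1 in NS21 (5.86% of genes), Tfap2b and Twist2 in NS195R (7.36%) and Tfap2c in NSEB5-2C (9.34%). With dim values raised, the shares of genes were 4.06%, 5.88% and 6.30%, and the members were the same except that Tfap2b dropped out. At least 2-fold above Mixture in 1 line and as far below it in another were 3 of 10 members (Tfap2a, Tfap2c and Twist2), against 4.62% of genes. In the limma fits of each line against the others, 0 of 19824 genes were called. With p left unadjusted and a limit of 0.05, NS21 had 763 higher genes (3.85%), 1 of 10 members among them (Tfap2c), and 369 lower (1.86%), with 0 members. NS195R had 1429 higher (7.21%), with 0 members, and 651 lower (3.28%), with 1 member (Twist2). NSEB5-2C had 609 higher (3.07%), with 2 members (Snai2 and Tfap2a), and 545 lower (2.75%), with 0 members. Each such fit leaves 1 residual degree of freedom.

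Epithelial genes, which Snail, Zeb and Twist factors are known to repress, also differed between the lines. Of 18 epithelial genes 18 were well above background in Mixture, 12 in NSEB5-2C, 11 in NS21 and 2 in NS195R. The keratin gene Krt18 stood at a level of 5.08 in NSEB5-2C, 7.16 in NS21 and -5.62 in NS195R, where it was dim, a range of at least 5213-fold. Its partner Krt8 ranged over at least 780-fold and the desmosome gene Dsp over at least 243-fold, both highest in NS21 and lowest in NS195R. Cdh1, chosen after its values were seen, was at -2.74 in NSEB5-2C, -0.27 in NS21 and -7.26 in NS195R, dim in the last. No relation between these genes and the members was tested. At least 2-fold above both other lines were 10 of 18 in NS21, against 8.88% of genes, and 10 of 18 were as far below both in NS195R, against 7.36%. With dim values raised each count was 9 of 18, against 7.30% and 5.88%. The list's median log2 ratio to Mixture was -3.56 (-3.27 with dim values raised). With limma 5 of 18 fell and 0 rose, against 8.90% and 0.943% of genes. These were the tight junction genes Cldn7 (at least 115.6-fold, measured in 1 of 3 lines, limma adjusted p = 0.0377) and Ocln (at least 10.1-fold, limma adjusted p = 0.0399), the factor genes Grhl2 (10.2-fold, measured in 2 of 3 lines, limma adjusted p = 0.0320) and Ovol1 (at least 5.87-fold, limma adjusted p = 0.0351), and Rab25 (at least 28.3-fold, limma adjusted p = 0.0177), each lower in 3 of 3 lines. All 5 calls ended without any 1 line. The p-values come from values that were not raised. Ocln, Ovol1 and Rab25 were dim in every line, so the spread between lines behind their p-values is that of dim readings.

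**Figure D4:**
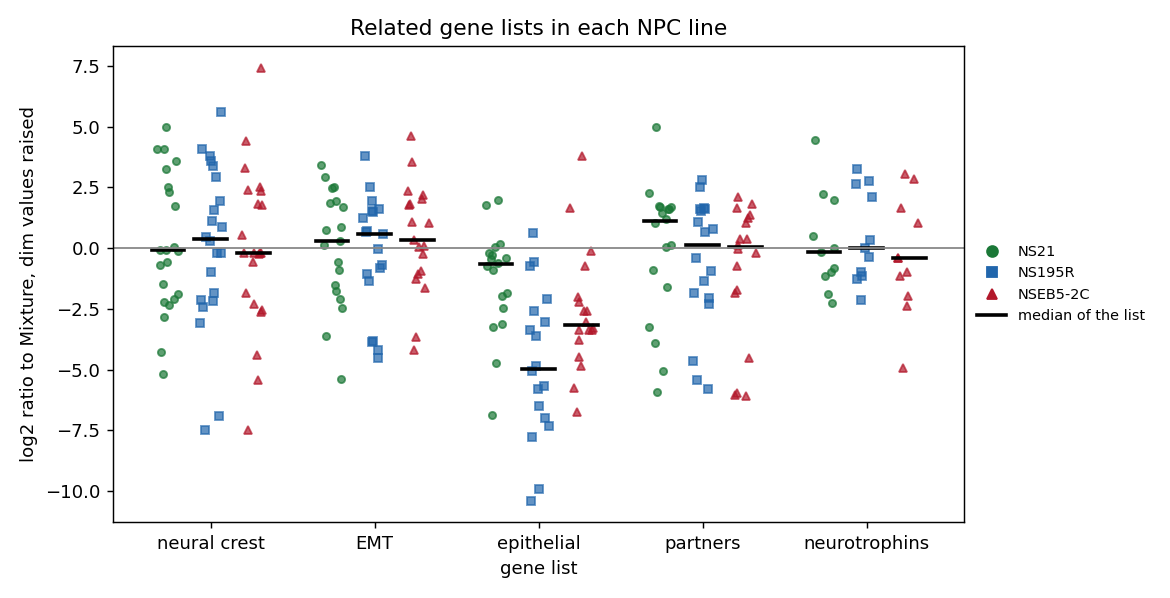
Log2 ratio to Mixture (y axis) of each tested gene of 5 related lists in each NPC line, with dim values raised to each array's lowest measurable signal, 1 point per gene and a bar at each list's median. Epithelial genes had medians of -3.17 for NSEB5-2C, -4.97 for NS195R and -0.66 for NS21, and the EMT list had medians of 0.34, 0.59 and 0.29.

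Other EMT genes gave 0 limma calls among 19 tested, and a median log2 ratio of 0.62. Before adjustment (p under 0.05) 3 were higher and 2 lower, against 15.6% and 15.4% of genes. Among factors that act beside the Snail genes, Zeb1 was highest in NS195R (4.41, against 1.34 in NS21 and 0.70 in NSEB5-2C) and Prrx2 in NSEB5-2C (4.01, against 1.88 and 1.01 in NS21 and NS195R), both chosen after their values were seen. The matrix gene Fn1 stood at 4.40 in NSEB5-2C, 0.89 in NS195R and 5.64 in NS21. The growth factor gene Tgfb2 was highest in NS21 and spanned 23.9-fold, and the protease gene Mmp2 was highest in NSEB5-2C and spanned 18.8-fold. Col1a1, a fibrillar collagen gene, lay 19.6-fold below Mixture (limma adjusted p = 0.0885, lower in 3 of 3 lines) without passing.

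Of 24 other neural crest specifiers and border genes 22 were tested and 0 were called, and the median log2 ratio was 0.61. Before adjustment 3 were higher and 2 lower, against 15.6% and 15.4% of genes. The border factor gene Msx1 was highest in NS21 (level 1.54, against -4.45 in NS195R and -0.21 in NSEB5-2C), as Tfap2c was. The dorsal neural tube factor gene Zic1 was highest in NSEB5-2C (2.92, against 2.09 in NS195R and -3.82 in NS21). Crabp1, a retinoic acid binding protein gene of migrating crest, stood at 4.80 in NSEB5-2C, at 0.75 in NS195R and at a dim -4.72 in NS21. Rxrg, a retinoid receptor gene, was at 2.30 in Mixture and well above background in NS21 alone of the lines. Sox10, a factor that crest cells and their glial progeny keep, was well above background in NS195R (-1.99) and Mixture (-2.88) only.

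Neurotrophins and receptors that act with Ngfr gave 2 of 11 lower and 0 higher with limma, against 8.90% and 0.943% of genes. The list's median log2 ratio was -0.54 (-0.19 with dim values raised). Ntf3, a neurotrophin gene, was lower in 3 of 3 lines, by at least 1.89-fold (limma adjusted p = 0.0274). Both calls ended without any 1 line. Ntf3 was dim in every line, and its p-value comes from dim readings that were not raised. The BDNF receptor gene Ntrk2 stood at 3.02 in NS195R and -2.14 in NS21 and was not well above background in NSEB5-2C. Ntrk3 was well above background in NS195R alone of the lines. The ligand gene Ntf5 was highest in NS21 (-0.52).

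Partners and co-regulators of the members gave 0 calls among 18 tested. Before adjustment 3 were higher and 4 lower, against 15.6% and 15.4% of genes. The AP-2 co-activator gene Cited1 was highest in NS21 (4.22, against 0.86 in NS195R and -0.97 in NSEB5-2C), the line with the highest Tfap2c. Its relative Cited4 lay 38.4-fold below Mixture (limma adjusted p = 0.0896). The ETS genes Erg (at least 44.3-fold, measured in 2 of 3 lines, limma adjusted p = 0.117) and Fli1 (at least 46.7-fold, measured in 1 of 3 lines, limma adjusted p = 0.0766) lay farther below Mixture than Ets1, and none of the 3 passed.

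Marker lists of other cell types are set beside several of these values, and their part in them was not tested. Beside Tfap2c, trophoblast markers were well above background for 2 of 7 in NSEB5-2C, 0 in NS195R and 4 in NS21, with summed levels of 0.47, -3.15 and 4.97 in the same order and of 1.63 in Mixture. In NS21 that sum was nearly all the caudal and trophoblast factor gene Cdx2, at 4.91, with Gata3 next at 0.13. Gata3 was at 0.13 in NSEB5-2C too, and Elf5, Hand1 and Tpbpa were not well above background in NS21. Germ cell markers were so for 0 of 6 in NSEB5-2C, 3 in NS195R and 2 in NS21. Beside Snai2, Twist1 and Twist2, mesenchyme markers were well above background for 7 of 10 in NSEB5-2C, 10 in NS195R and 9 in NS21. Their summed levels were 6.13 in NSEB5-2C, 6.06 in NS195R, 5.23 in NS21 and 8.41 in Mixture. Lum, Postn and Pdgfra were not well above background in NSEB5-2C. Col1a2 was highest of the lines in NSEB5-2C (4.70, against 1.94 in NS195R and -3.50 in NS21), as were Col1a1 and Pdgfrb. The other mesenchyme markers were highest of the lines in NS195R or NS21. Beside Ets1, lymphocyte markers were well above background for 8 of 8 in Mixture and between 1 and 3 in the lines. Their summed levels were 4.84 in Mixture and -1.68 to -0.04 in the lines. Endothelial markers were well above background for 7 of 7 in Mixture and 2 or 3 in the lines. Their summed levels were 4.55 in Mixture, -2.36 in NSEB5-2C, 4.04 in NS195R and -2.25 in NS21. In NS195R that sum was nearly all Emcn, at 4.02 (2.84 in Mixture), with Kdr next at -2.69. The T cell gene Cd3d and the endothelial genes Cdh5, Pecam1, Tek and Tie1 were dim in every line. Of the other endothelial markers, Emcn and Esam were well above background in every line and Kdr in NS195R alone of the lines. Surface epithelium markers were well above background for 7 of 7 in Mixture, 5 in NSEB5-2C, 1 in NS195R and 5 in NS21 (summed levels 6.53, 5.20, -3.29 and 7.38), with Krt5 and Trp63 dim in every line. Of 9 Schwann cell and melanocyte markers, Dct and Tyrp1 were among those dim in every line. Their summed levels over all 9 were 2.65 in Mixture, -1.69 in NSEB5-2C, 4.17 in NS195R and 0.69 in NS21. In NS195R that sum was nearly all S100b, at 4.13, with Sox10 next at -1.99.

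Genes with a pattern over the 4 arrays most like those of the 3 most variable members were found by the root mean square difference of centred log2 levels among 15971 named genes. For Tfap2c they were 3830417A13Rik (0.34, well above background on 1 array), Greb1 (0.52, on 2) and Wnt3 (0.56, on 3), and 1 gene lay within 0.5. For Twist2 they were Lrrc15 (0.16, well above background on 3 arrays), Pdlim2 (0.25, on 4) and Plpp2 (0.26, on 4), with 18 genes within 0.5. For Tfap2a they were Olfr197 (0.08), Olfr545 (0.14) and Mmp1a (0.32), each well above background on 1 array only, with 37 genes within 0.5. Over 4 arrays such likeness is a description.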

How the data were processed

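Per the file headers, the deposited processed intensity came from Agilent Feature Extraction 9.5.3.1, after its background subtraction. The deposited value table held the same intensity at every feature, and 0 columns of other samples. The build behind the probe positions was not used here. All arrays share 1 scan time. Processed signals were taken to log2 and the 75th percentile of non-control spots subtracted. Outlier spots were left out, repeated spots averaged, and 19 probes dropped that lacked a value on an array. Symbols were updated with RefSeq tables (GRCm38.p6). The probe with the highest mean was kept per gene, and limma was run on the 19824 genes that 1 array or more measured well above background (limma 3.58.1 in R 4.3.3, two-sided, Benjamini-Hochberg adjusted p under 0.05; residual degrees of freedom 2, prior 1.33). Mixture, with 1 array, was taken to vary as the lines do. Fits of 1 line against the others used the NPC arrays. A ratio is written as at least N-fold where values not well above background were raised to the lowest such signal. The p-values beside such ratios come from the values before raising. Summed levels are log2 sums of scaled signals over a list. The fits were tested on simulated data: with few genes changed they recovered the sizes of the changes but called none, so 0 calls do not show that genes are alike. Alternatives covered background correction, scaling, the dim filter, the probe kept, the variance prior, the fold limit and each line left out. Members and lists were chosen with earlier results of these data known. The rule named all members, up to 4 genes per list with the largest ratio to Mixture or range between lines, and 3 similar genes for 3 members. Further genes with values, among them Sox10, Grhl2, Ovol1, Ocln, Rab25 and Ntf3, were named after their values were seen. A few list genes are not reported here but stay in the counts of their lists.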

Additional observations from a re-analysis of the deposited data

Results flagged for a closer look

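For 3 members, 1 NPC line lay at least 2-fold above Mixture and another at least 2-fold below it, where 4.62% of genes tested did so. The difference between these lines was 7.30 log2 units for Tfap2c (NS21 minus NSEB5-2C), 5.13 for Twist2 (NSEB5-2C minus NS195R) and 4.81 for Tfap2a (NSEB5-2C minus NS195R). These differences rest on 1 array per line and were not tested as such. The low side depended on scaling for 2 of them: the ratio of Tfap2a in NS195R was -1.07, or -0.18 with normexp, -0.49 with quantile normalization and -0.53 with median scaling, and that of Tfap2c in NSEB5-2C was -1.56, or -0.26, -0.58 and -0.57. Twist2 in NS195R lay at -2.78, or -1.26, -2.60 and -2.24. The second Tfap2a probe gave a range between lines of 3.40 before dim values were raised, but it was dim in NS21 and NS195R. Groups were too small to test for a sample far from the others.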

How the results depend on the processing

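The dim filter, the intensity trend and the fit of every probe by itself leave a member's ratio unchanged, so its direction could not turn. The same holds for the mean of probes in members with 1 probe. Of the members' mean ratios to Mixture under all alternatives, these included, 103 kept their direction and stayed without a call, and 5 changed sign. These were Tfap2c (-0.78) and Twist2 (-0.22) without NS21, and Tfap2a (-0.93), Snai2 (-0.78) and Twist2 (-0.85) without NSEB5-2C. Leaving out 1 line at a time gave -0.78 to 2.87 for Tfap2c, -0.22, -0.85 or 1.72 for Twist2, -0.93 to 1.47 for Tfap2a and -0.78 to 0.98 for Snai2. The adjusted p of members lay between 0.0758 (Ets1) and 0.97 (Twist2). Over all genes, 187 higher calls became 966 with normexp, 588 with quantile normalization, 525 without the filter and 473 with an intensity trend. Calls numbered 0 higher and 0 lower among genes measured on every array and between 0 and 0 without any 1 line. Members at least 1.5-fold above Mixture were 2 in NS21 and 1 in NS195R both with normexp and with a limit of 2-fold. The shares of genes with normexp were 34.1% and 33.2%, and those at 2-fold are not given. Members at least 1.5-fold below Mixture (alternatives chosen after seeing the data) were 2, 4 and 2 in NS21, NS195R and NSEB5-2C with normexp. The shares of genes were 22.5%, 22.4% and 23.0%. With median scaling the members numbered 2, 3 and 1, against 26.1%, 26.2% and 25.8% of genes. Quantile normalization gave 2 in NSEB5-2C, against 31.7%. Members at least 2-fold below both other lines were 1 in NS195R with normexp, with the mean of probes, among genes measured on every array and with dim values raised (the last chosen after seeing the data), and 0 in NSEB5-2C with normexp. The share of genes in NS195R with dim values raised was 5.88%. The shares under the other settings are not given, so those counts cannot be set against them. The highest and lowest line of each member were the same under normexp, quantile and median scaling. Signal over background limits Tfap2b and Foxd3. No paired analysis was possible because each line and Mixture had 1 array.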
